A study of Mus musculus with 8 samples.

Results

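To separate the loss of nuclear localization from the loss of kinase activity, accessible chromatin was compared between mouse squamous cell carcinoma (SCC) cells that express a nuclear localization-deficient focal adhesion kinase (FAK-nls) and cells that express a kinase-dead FAK (FAK-kd). In each of the 8 libraries of the series, peaks on the autosomes and sex chromosomes were ranked by −log10 p. The 24383 strongest peaks of every library, the number in the shortest list, were merged into 40309 regions where they overlapped by at least 1 bp. Regions with a call in each FAK-nls library and in no FAK-kd library are termed FAK-nls-only, and the reverse pattern FAK-kd-only. There were 1399 FAK-nls-only regions, or 3.47% of the merged regions, and 1518 FAK-kd-only regions, or 3.77%. Of the other regions, 15646 were called in all 4 libraries and 2318 in 1 library of each line. These set sizes follow from the rule and carry no test.

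The cells came from skin tumours induced with DMBA and TPA in FVB mice of the genotype K14CreER FAKflox/flox, in which keratin 14-driven Cre deletes *Ptk2* (the gene of FAK) on exposure to 4-hydroxytamoxifen. The driver gene given in the labels is Ha-Ras. All cells of the series shared the deletion, which was induced in culture, and the lines were made from a single FAK-/- clone, so differences between lines also include what arose when each was transduced and selected. FAK-nls cells carry retroviral FAK with the substitutions R177A, R178A, R190A, R191A, R216A and R218A, FAK-kd cells carry FAK with K454R, FAK-WT cells carry the wild-type protein, and FAK-/- cells served as the control. Each line had 2 libraries of ATAC-seq, in which a transposase inserts adapters into open DNA. They are numbered as biological replicates, so p-values reflect the spread between the libraries of a line and not between independently made lines.

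FAK is a cytoplasmic tyrosine kinase that is recruited to focal adhesions, where integrins attach cells to the matrix, and it relays integrin and growth factor signals together with Src family kinases. Its FERM domain holds basic residues that allow import into the nucleus, where FAK acts largely as a scaffold for transcription factors. The nls mutant therefore retains the catalytic lysine but enters the nucleus poorly, while the kd mutant can enter the nucleus but lacks catalytic activity. Accessible regions outside promoters in epithelial tumour cells commonly hold the site of AP-1, the dimer of Jun and Fos family proteins that responds to Ras and MAP kinase signalling.

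The FAK-nls lists were the shortest of the series, with 24383 and 24959 peaks on the chromosomes kept, against 32938 and 45937 in FAK-kd and 35236 to 53703 in FAK-WT and FAK-/-. The median pileup of the strongest peaks was 8.94 and 8.91 in FAK-nls, 13.8 and 17.0 in FAK-kd and 14.2 to 21.5 in the other lines. Libraries of FAK-nls therefore stood apart from the other 6 in pileup and list length. The study lists mapped-read totals not lower for FAK-nls than for FAK-kd, with a larger share of duplicates in FAK-nls. Its total for FAK-nls replicate 1 is below those of FAK-WT and FAK-/-. The part of read depth and duplicates in the pileup was not tested. The rank limit used 100% and 97.7% of the FAK-nls lists but 74.0% and 53.1% of the FAK-kd lists. It fell at a −log10 p of 3.36 and 3.77 in FAK-nls, 4.95 and 6.63 in FAK-kd and 5.17 to 8.10 in the other lines. Peaks near the limit were therefore weaker by −log10 p in FAK-nls than in the other lines. A signal too weak to be called cannot be told apart from closed chromatin in these lists. At promoters, markers of keratinocytes were largely uncalled. Of 13 such genes 1 (*Itga6*) was called in all 4 libraries and 11 were called in none, including *Krt5*, *Krt14*, *Trp63* and *Cdh1*. Of 9 fibroblast or mesenchymal markers 5 were called in all 4, among them *Vim*, *Twist1* and *Col1a2*. None of 4 endothelial promoters was called in the 4 libraries, of 7 immune markers 6 were called in none, and of 5 melanocyte markers *Mitf* and *Pmel* were called in all 4. The promoter calls thus did not bear out the labelled squamous identity by these markers, in either line. In a wider list of 26 keratinocyte genes, regions in the gene or 10 kb upstream were read. Of 21 such regions 8 were called in all 4 libraries, among them some at *Klf4*, *Klf5* and *Tfap2a*.

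The sequences of 7 regions on which the results turn are shown first, each by 200 bases of the GRCm38 reference (the mm10 build of the peak lists), plus strand, 5′ to 3′. The reference is of the strain C57BL/6J and not of the FVB cells. Capitals mark matches to the AP-1 motif TGACTCA on either strand (TGAGTCA is its reverse complement), and windows are centred on the match nearest the region's centre, or on the centre where there is none. The first 4 were FAK-kd-only, the next 2 FAK-nls-only, and the last was called in every library but was higher in FAK-kd.
Pappa intron (chr4:65254231-65254430): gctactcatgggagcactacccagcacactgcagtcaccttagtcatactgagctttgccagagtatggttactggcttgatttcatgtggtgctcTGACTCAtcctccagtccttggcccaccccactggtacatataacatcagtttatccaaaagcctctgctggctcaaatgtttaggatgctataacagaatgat
Cxcr5 intron (chr9:44515411-44515610): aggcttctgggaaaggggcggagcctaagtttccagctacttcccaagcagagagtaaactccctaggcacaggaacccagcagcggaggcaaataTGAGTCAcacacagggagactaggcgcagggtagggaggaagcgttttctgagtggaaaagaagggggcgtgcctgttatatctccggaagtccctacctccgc
Prg2 upstream (chr2:84961443-84961642): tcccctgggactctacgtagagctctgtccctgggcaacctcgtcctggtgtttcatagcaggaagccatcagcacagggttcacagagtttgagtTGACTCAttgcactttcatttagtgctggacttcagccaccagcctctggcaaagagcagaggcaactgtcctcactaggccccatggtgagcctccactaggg
Il33 upstream (chr19:29912016-29912215): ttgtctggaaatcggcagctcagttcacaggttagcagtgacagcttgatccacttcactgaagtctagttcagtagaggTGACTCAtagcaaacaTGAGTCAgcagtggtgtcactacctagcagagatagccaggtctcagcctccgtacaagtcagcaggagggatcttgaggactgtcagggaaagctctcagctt
Ano4 intron (chr10:89252667-89252866): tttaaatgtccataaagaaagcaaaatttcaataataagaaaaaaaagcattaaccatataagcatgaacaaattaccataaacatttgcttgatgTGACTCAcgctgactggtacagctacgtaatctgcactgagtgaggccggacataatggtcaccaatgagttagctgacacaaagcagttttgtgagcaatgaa
Tmprss2 upstream (chr16:97659464-97659663): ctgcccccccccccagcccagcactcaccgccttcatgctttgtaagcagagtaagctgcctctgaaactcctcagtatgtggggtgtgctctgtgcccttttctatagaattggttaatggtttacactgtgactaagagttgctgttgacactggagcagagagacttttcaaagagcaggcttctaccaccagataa
P3h2 intron (chr16:26065036-26065235): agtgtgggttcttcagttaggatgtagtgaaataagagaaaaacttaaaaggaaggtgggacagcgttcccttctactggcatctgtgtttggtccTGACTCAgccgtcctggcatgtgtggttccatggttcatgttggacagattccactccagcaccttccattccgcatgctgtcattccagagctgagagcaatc
None of the 7 windows overlaps an annotated exon. The window at *Il33* held 2 AP-1 matches, that at *Tmprss2* none and each of the others 1. The G+C content was lowest in the *Ano4* window, at 36%, and highest in the *Cxcr5* window, at 56%.

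How regions fared below the rank limit depended on the length of the lists, so it does not compare the sets. In the full peak lists, 1480 FAK-kd-only regions (97.5%, 95% Wilson interval 96.6% to 98.2%) still lacked a call in both FAK-nls libraries, since those lists hardly extend past the limit. Of the FAK-nls-only regions, 208 (14.9%, 13.1% to 16.8%) lacked any FAK-kd call in the full lists, 515 had a call in 1 FAK-kd library and 676 in both. The FAK-kd peaks that lay there ranked at a median of 27820 in replicate 1 and 32088 in replicate 2, past the limit of 24383. Most FAK-nls-only regions therefore had a peak in at least 1 FAK-kd library at a lower rank. With all peaks of every library merged, 216 regions were FAK-nls-only and 5946 were FAK-kd-only.

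**Figure D1:**
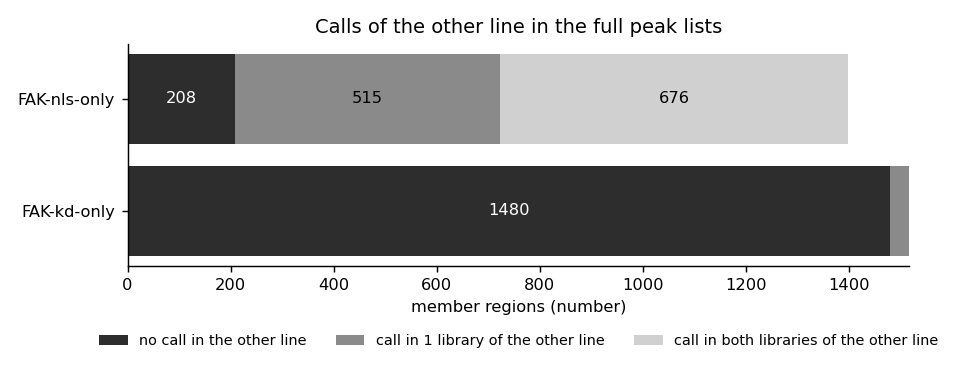
Number of member regions (x axis) of each set by whether the full peak lists of the other line hold a call there. For FAK-nls-only regions the bar splits into 208 with no FAK-kd call, 515 with a call in 1 library and 676 with calls in both, while 1480 of 1518 FAK-kd-only regions had no FAK-nls call.

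Members of both sets were mostly among the weaker peaks within the rank limit, which for FAK-nls is nearly the whole list. The poorer of the 2 ranks of a region in its own line had a median of 20546 among FAK-nls-only regions and 20348 among FAK-kd-only regions, and 6.65% and 6.19% of them lay in the first 50% of the ranks. Regions called in all 4 libraries had a median poorest rank of 14045. At the limit, the last FAK-nls-only region (chr9:57537422-57538490) had a poorer rank of 24375 and the first that missed it (chr16:17927735-17928617, near *Slc25a1*) had 24388. For FAK-kd-only regions these ranks were 24377 (near *Klhl22*) and 24386 (near *Ahcyl1*). Median fold enrichment, the ratio of pileup to local background, was 3.85 and 4.01 in the FAK-nls replicates over FAK-nls-only regions. Over FAK-kd-only regions it was 4.19 and 5.14 in the FAK-kd replicates.

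The FAK-WT and FAK-/- libraries entered the merging of peaks but not the choice of members, which makes their calls a measure the rule did not use. FAK-kd-only regions were called in these lines more often than FAK-nls-only regions. Both FAK-WT libraries had a call at 658 of 1518 FAK-kd-only regions (43.3%, 40.9% to 45.9%) and at 283 of 1399 FAK-nls-only regions (20.2%, 18.2% to 22.4%). Regions called in 1 library of each mutant line, which also had 2 calls, lay between at 29.6% (27.8% to 31.5%). For FAK-/- the shares were 45.3% (42.8% to 47.8%), 20.2% (18.1% to 22.3%) and 32.5% (30.6% to 34.4%). Among all regions both libraries had a call in 49.7% for FAK-WT and 49.7% for FAK-/-, so both sets lay below that share. Within the rank limit, FAK-kd-only regions were thus shared more widely than FAK-nls-only regions. The part of the lower −log10 p at the limit in FAK-nls was not tested.

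**Figure D2:**
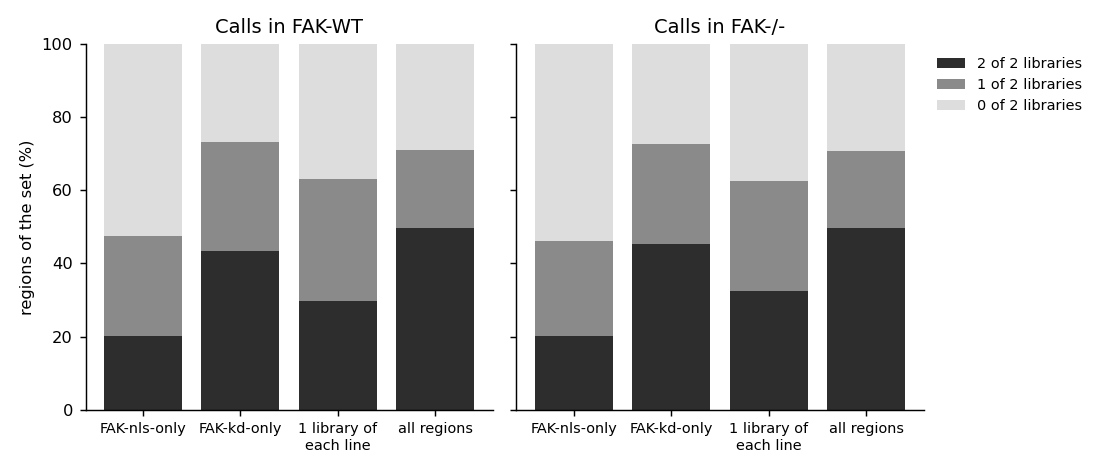
Share of regions (y axis, percent) called in 2, 1 or 0 libraries of FAK-WT (left) and FAK-/- (right), for both sets, for regions called in 1 library of each mutant line and for all 40309 regions. The dark part, called in both libraries, is 43.3% and 45.3% for FAK-kd-only regions and 20.2% in both panels for FAK-nls-only regions.

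The same order was seen in each library. In FAK-WT, 62.3% and 54.3% of FAK-kd-only regions were called in replicates 1 and 2, against 29.7% and 38.2% of FAK-nls-only regions. In FAK-/- cells 59.7% and 58.3% of FAK-kd-only regions were called, against 33.0% and 33.3%. Among all regions, 60.2% to 60.4% were called in each of these 4 libraries, so the FAK-kd-only regions lay around that share and the FAK-nls-only regions below it. Below the rank limit the gap was smaller. In the full lists of FAK-WT replicates 1 and 2, 97.4% and 84.1% of FAK-kd-only and 91.4% and 77.5% of FAK-nls-only regions had a peak. In those of FAK-/- the shares were 91.0% and 80.0%, and 80.8% and 66.7%. Among all regions the full lists held a peak in 92.4% and 81.2% for FAK-WT and 85.2% and 76.9% for FAK-/-. The FAK-kd-only shares lay above these and the FAK-nls-only shares below. When 1 library of each line was compared, the share in both FAK-WT libraries was 33.1% to 36.2% for the FAK-kd side and 19.2% to 22.5% for the FAK-nls side over the 4 pairs. Leaving out a FAK-kd library asks for 1 call on that side and 2 on the other, and it turned the order. The shares were then 25.6% for FAK-kd-only and 29.2% for FAK-nls-only regions without FAK-kd replicate 1, and 26.9% and 32.1% without FAK-kd replicate 2. Leaving out a FAK-nls library widened the gap instead. The shares were 51.4% for FAK-kd-only and 13.2% for FAK-nls-only regions without FAK-nls replicate 1, and 53.8% and 11.0% without FAK-nls replicate 2.

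Calls in FAK-WT and FAK-/- within the rank limit split the sets further, and many regions without a call there had a lower-ranked peak, as the full lists show. None of the other 4 libraries called 485 FAK-nls-only regions (34.7%, 32.2% to 37.2%) and 197 FAK-kd-only regions (13.0%, 11.4% to 14.8%), beside 16.2% of all regions. All 4 called 113 FAK-nls-only regions (8.08%, 6.76% to 9.62%) and 415 FAK-kd-only regions (27.3%, 25.2% to 29.6%), beside 40.5% of all regions. FAK-kd-only regions were thus below the share of all regions in both groups. These 415 regions had calls in every line except FAK-nls. Regions with 2 FAK-WT calls and no FAK-/- call made up 5.43% (76 regions) of the FAK-nls-only set and 5.99% (91 regions) of the FAK-kd-only set. The pattern was in 3.44% of all regions and in 5.57% of regions called in 1 library of each line. The intervals of the 2 sets overlapped (4.36% to 6.75% and 4.91% to 7.30%), as did those of the reverse pattern (6.08%, 4.94% to 7.45%, and 5.20%, 4.20% to 6.44%), which 3.31% of all regions had. These intervals cover the counting of regions only. The covered bases shared by 2 libraries, as the Jaccard index, were 0.540 to 0.605 between FAK-kd and FAK-WT or FAK-/- libraries. Between FAK-nls and the same libraries they were 0.446 to 0.499. The index was 0.524 between the FAK-nls replicates, 0.578 between the FAK-kd replicates and 0.478 to 0.518 between FAK-nls and FAK-kd. The FAK-nls replicates were thus little more alike than FAK-nls and FAK-kd libraries. The part of the shorter FAK-nls peaks in these values was not tested.

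The highest-ranked FAK-nls-only region lay in an intron of *Ano4*, which encodes a member of the anoctamin membrane proteins (chr10:89252440-89253181). Its fold enrichment was 5.74 and 5.95 in FAK-nls, 5.79 and 6.10 in FAK-/- and 4.03 and 3.91 in FAK-WT, where it missed the rank limit. No FAK-kd library had a peak there, even in the full lists. The *Ano4* window above holds its AP-1 match. A region whose nearest start site is that of *Gm13498* (chr2:50954277-50954756) and one near *Gm5876* (chr6:66121576-66122168) likewise had no FAK-kd peak in the full lists. The former had fold enrichments of 5.59 and 5.61 in FAK-nls and 3.94 and 3.71 in FAK-WT, and the latter had 5.50 and 6.14 in FAK-nls and 4.63 and 6.32 in FAK-/-. These were the only 3 of the 13 named FAK-nls-only regions whose pattern held in the full lists.

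A region 48368 bp upstream of *Tmprss2*, which encodes a membrane serine protease, was called in FAK-nls alone (chr16:97659413-97659714). Fold enrichment was 5.34 and 5.61 in FAK-nls and 3.71 in FAK-kd replicate 2, where the peak ranked 37222, and no other library had a peak. The promoter of *Kif2c*, which encodes a microtubule-depolymerizing kinesin of mitosis, showed the other extreme (chr4:117182052-117182903). It had a peak in all 8 libraries, with 5.20 and 5.80 in FAK-nls, 3.31 and 4.61 in FAK-kd, 4.77 and 6.54 in FAK-WT and 4.73 and 4.08 in FAK-/-. Its membership came from FAK-kd ranks of 29967 and 24668, the latter close to the limit. A promoter region of *Fam160a1* (chr3:85740452-85740867) also missed the limit narrowly in FAK-kd, with ranks of 25112 and 24689, and had no peak in FAK-WT replicate 2.

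Of the FAK-nls-only regions with 2 FAK-WT calls and no FAK-/- call, the highest-ranked lay 7800 bp upstream of *Serpina16* (chr12:103683666-103684212), at the start site of *Stx12*, a syntaxin of endosomes (chr4:132884008-132885050), and in an intron of *Frmpd4* (chrX:168114870-168115453). At *Frmpd4* the fold enrichment was 7.57 and 5.29 in FAK-WT, 5.73 and 5.20 in FAK-nls and 4.17 in FAK-kd replicate 2, and FAK-/- and FAK-kd replicate 1 had no peak. At *Stx12* every library had a peak, between 3.42 and 5.46.

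The 14 named FAK-kd-only regions had no FAK-nls peak at all. The highest-ranked lay between genes on chromosome 3 (chr3:58330056-58330612), with *Tsc22d2* as the nearest coding gene, in a 10 Mb window whose pileup leaned to FAK-kd as a whole. Its fold enrichment was 6.31 and 7.64 in FAK-kd, 6.15 and 4.92 in FAK-WT and 4.12 in FAK-/- replicate 2, with no peak in FAK-/- replicate 1. The intron of *Pappa*, which encodes a metalloprotease that frees IGF from its binding proteins, was open in FAK-kd (6.87 and 7.30) and FAK-WT (7.52 and 7.85) and had no peak in FAK-nls or FAK-/- libraries (chr4:65253857-65254685). It held 2 AP-1 matches in its central 500 bp, 1 of which is in the window above. An intron of *Fryl* (chr5:73103665-73104068) was similar, with 5.71 and 7.52 in FAK-kd, 5.52 and 4.42 in FAK-WT and a weak peak of 3.56 in FAK-/- replicate 2. The third region with 2 FAK-WT calls and no FAK-/- call lay in an intron of *Sntg1* (chr1:9145371-9146085), a scaffold of the dystrophin complex, with 5.51 and 7.59 in FAK-kd, 5.75 and 4.90 in FAK-WT and peaks below the rank limit of 4.18 and 3.93 in FAK-/-. *Pappa* was thus the only one of these 3 with no FAK-/- peak in the full lists.

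Most of the other high-ranked FAK-kd-only regions were open outside FAK-nls in general. In the intron of *Cxcr5*, which encodes a chemokine receptor of lymphocytes (chr9:44515075-44515872), fold enrichment was 6.29 and 7.44 in FAK-kd, 5.01 and 5.34 in FAK-WT and 3.71 and 4.01 in FAK-/-. A region 18870 bp upstream of *Prg2*, the gene of an eosinophil granule protein (chr2:84961164-84962019), had 6.69 and 6.40 in FAK-kd and 5.20 to 6.32 in FAK-WT and FAK-/-. The promoter of *Ttll1*, a tubulin polyglutamylase (chr15:83510559-83511170), had 5.22 and 7.10 in FAK-kd and 3.85 to 6.51 in the other lines with peaks. A region whose nearest coding start site is that of *Fn1*, the gene of the matrix protein fibronectin, though 240462 bp away (chr1:71893259-71894066), had 5.53 and 6.32 in FAK-kd and 4.16 to 5.30 in FAK-WT and FAK-/-.

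**Figure D3:**
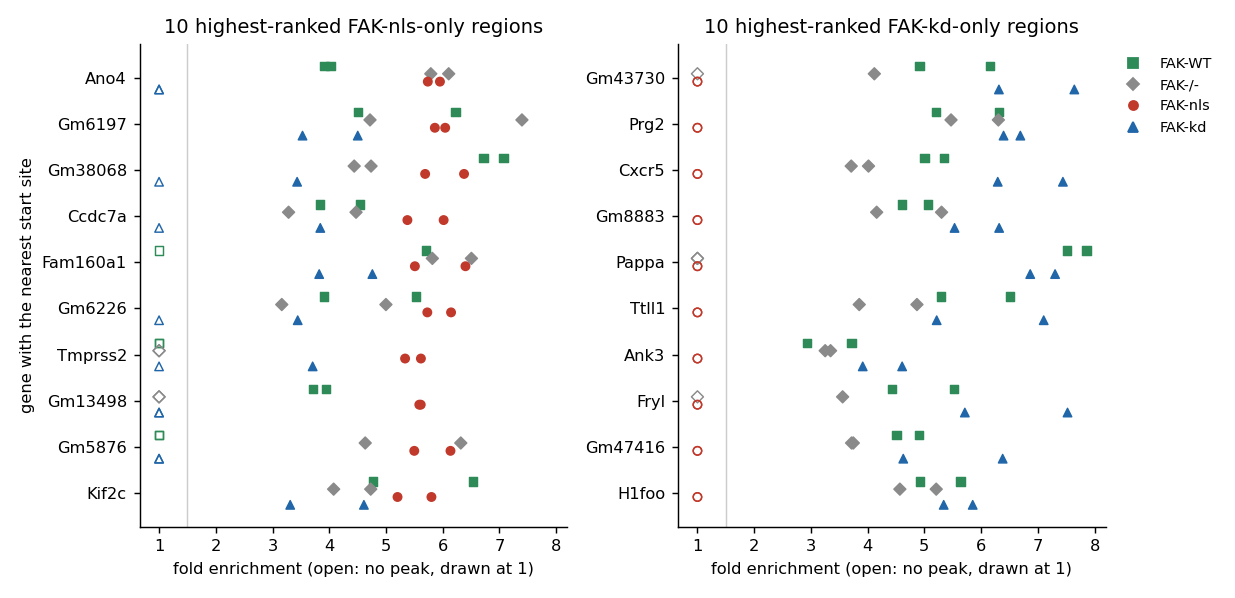
Fold enrichment (x axis) in all 8 libraries at the 10 highest-ranked regions of each set outside chromosome 18, named by the gene with the nearest start site (y axis). Open symbols at 1 mark libraries with no peak. All 10 FAK-kd-only regions lack a FAK-nls peak, while FAK-kd peaks of 3.31 to 4.76 are present at 7 of the 10 FAK-nls-only regions.

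The FAK-kd-only regions called in neither FAK-WT library included 2 promoters among the first 3. The start site of *Nid2*, which encodes the basement membrane protein nidogen-2 (chr14:19751010-19751632), had peaks in FAK-kd alone, with fold enrichments of 4.95 and 6.43 and none in the other 6 libraries even in the full lists. The start site of *Amz2*, an archaemetzincin (chr11:109439775-109440243), had 5.39 and 6.68 in FAK-kd and 3.82 and 3.41 in FAK-/-. A region 44479 bp upstream of *Fbxo32*, an E3 ligase subunit of muscle atrophy (chr15:58259250-58259573), had 5.03 and 5.49 in FAK-kd and 3.45 to 4.55 in FAK-WT and FAK-/-.

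Genes were next listed by the number of member regions nearest their start sites. *Ulk4*, a kinase-like gene, had 4 FAK-nls-only regions of 16. The genes with 3 were *4930503O07Rik* (of 7), *Gm5285* (of 5) and *Adgrl3*, an adhesion receptor (of 10). The most FAK-kd-only regions of a gene were 3, at the unnamed genes *Gm49206* (of 4) and *Gm24200* (of 5) and at *Abtb2* (3 of 15), *Trio*, which encodes a guanine nucleotide exchange factor (3 of 15), *Sox5* (3 of 18) and *Pacsin2* (3 of 10). When only protein-coding start sites were used, a listing chosen after the values were seen, *Myc* led with 5 FAK-kd-only regions of 38. They lay between 375584 bp upstream and 903029 bp downstream of its start site on chromosome 15. A FAK-nls-only region at the *Pvt1* promoter (chr15:62037688-62038132) lay nearer, 50488 bp downstream of the *Myc* start site. There the fold enrichment was 4.21 and 3.67 in FAK-nls, beside FAK-kd peaks of 3.25 and 3.88 below the rank limit. *Isl1*, on chromosome 13, had 4 FAK-nls-only regions of 11, as many as *Plxna2* (of 30), *Ulk4*, *Tshr*, *Ice1* and *Prmt6*. At the 4 *Isl1* regions fold enrichment was 3.99 to 4.96 in FAK-nls. FAK-kd replicate 2 had peaks of 4.31 to 4.75 below the rank limit at 3 of them, and FAK-kd replicate 1 had a peak of 3.22 at the remaining region. With so few members per gene no count is read as particular to the gene.

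Genes of the FAK pathway had members in both sets. The gene lists were described by regions in the gene or the 10 kb upstream, where 3.29% of regions were FAK-nls-only and 3.6% FAK-kd-only over all genes. Of 155 regions of 29 FAK and focal adhesion genes, 6 were FAK-nls-only (3.87%) and 7 FAK-kd-only (4.52%), close to that background. FAK-nls-only regions lay at the Src family kinases *Fyn* and *Yes1*, the adaptors *Cass4*, *Pxn* (paxillin) and *Lpp*, and *Vcl* (vinculin). Several had FAK-kd peaks below the rank limit. At *Yes1* fold enrichment was 3.30 and 3.55 in FAK-nls and 3.52 and 4.08 in FAK-kd, and at *Fyn* 3.93 and 3.80 against 3.53 and 4.05. *Pxn* had 3.72 and 3.42 against 4.00 in FAK-kd replicate 2, and *Lpp* 3.97 and 4.29 against 3.56 there. FAK-kd-only regions lay at the adaptors *Nedd9*, *Efs*, *Tgfb1i1* and *Zyx*, the integrin-linked kinase complex genes *Ilk* and *Parva*, and *Csk*, the kinase that inhibits Src. The *Cass4* intron (chr2:172410763-172411616) had fold enrichments of 3.54 and 3.81 in FAK-nls, 6.15 and 6.43 in FAK-WT and 5.70 and 4.92 in FAK-/-, and no FAK-kd peak. It was thus absent from FAK-kd lists while highest in FAK-WT. The *Vcl* intron (chr14:20964250-20964573) was called in FAK-nls alone (3.75 and 4.43), with a lower-ranked peak of 3.80 in FAK-kd replicate 2. *Itga2* and *Itga5*, integrin subunits for collagen and fibronectin, had 1 FAK-nls-only region each, and *Itgav* and *Tnc* had 1 FAK-kd-only region each.

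Counts were small in the other lists. Of 61 regions at 21 EGF receptor and MAP kinase feedback genes, 5 were FAK-kd-only (8.20%, 3.55% to 17.8%) and 2 FAK-nls-only. *Nrg1*, which encodes the ERBB ligand neuregulin, had 3 FAK-kd-only intronic regions of 19. They had fold enrichments of 3.94 to 5.74 in FAK-kd and 3.78 to 6.69 in FAK-WT and FAK-/-, with no FAK-nls peak. Among 46 regions of mesenchymal transition genes, *Zeb2*, a repressor of epithelial genes, had 2 FAK-kd-only regions of 5, both called in all of FAK-WT and FAK-/- (4.04 to 6.09) and FAK-kd (4.87 to 5.74). Among 48 regions of YAP and TEAD genes, *Tead1*, the DNA-binding partner of YAP, had 2 of 13 and *Amotl2*, a YAP-binding angiomotin, had 1 of 2. Among the 18 ETS factor genes none of 51 regions was in either set, with an upper Wilson limit of 7.0% in each. Among cytokine and chemokine genes, FAK-kd-only regions lay upstream of *Il24* and at the *Ccl2* promoter, and no FAK-nls-only region was found in 31. Keratins and keratinocyte factors had 2 FAK-nls-only regions in 21, upstream of *Krt8* and *Grhl1*. AP-1 factor genes had 2 FAK-nls-only regions (*Atf3* and *Mafk*) and 1 FAK-kd-only region (*Atf3*) in 36. IGF axis genes had 1 of each in 64 (*Pappa2* and *Pappa*), p53 pathway genes 1 of each in 24 (*Sesn1* and *Trp53*), and matrix protease genes 1 FAK-nls-only (*Plaur*) and 2 FAK-kd-only regions (*Plat* and *Timp3*) in 41. The 95% intervals of all 12 lists included the background share.

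*Dusp4*, whose product is a phosphatase of nuclear MAP kinases, had a FAK-kd-only region and a promoter that was not a member. A region 2201 bp upstream was FAK-kd-only (chr8:34804835-34805358), with 3.04 and 3.64 in FAK-kd, 2.75 to 3.11 in FAK-WT and FAK-/- and no peak in FAK-nls. The promoter (chr8:34806843-34807663) was called in every library, with 4.94 and 4.47 in FAK-nls, 3.15 and 3.73 in FAK-kd and 3.19 to 3.67 in the other lines. It was among the 10 regions with the lowest p of those higher in FAK-nls (log2 difference, FAK-nls minus FAK-kd, 0.62 ± 0.14 SE, limma with Benjamini-Hochberg adjustment, adjusted p = 0.258) but did not pass.

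At *Il33*, the gene of an IL-1 family cytokine that is also found in the nucleus, regions were read from 50 kb upstream to the end of the gene. There, 1 of 7 was a member. It was FAK-kd-only and lay 12902 bp upstream (chr19:29911907-29912517), with 2 AP-1 matches in the Il33 window above. Its fold enrichment was 4.44 and 5.21 in FAK-kd, 5.40 and 5.01 in FAK-/- and 5.17 in FAK-WT replicate 1, and no peak was present in FAK-nls or FAK-WT replicate 2. A region 3206 bp upstream of the nearest start site had calls in FAK-WT replicates 1 and 2 and FAK-/- replicate 1 and had no peak in any mutant library. At the promoter (chr19:29945947-29946865) FAK-nls replicate 1 alone had a call (3.42), and peaks of 3.34 and 3.40 in FAK-WT and 3.48 in FAK-kd replicate 2 were below the rank limit. The 3 regions called in all 4 mutant libraries had log2 differences of 0.08, −0.14 and −0.15, with adjusted p between 0.788 and 0.903 (limma, Benjamini-Hochberg). At *Ptk2* itself no region of 9 was a member, and the 4 called in all 4 libraries had adjusted p between 0.743 and 0.865.

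By location, FAK-nls-only regions were in promoters (500 bp before to 2000 bp after an annotated start site) in 26.4% of cases (24.2% to 28.8%) and FAK-kd-only regions in 17.5% (15.6% to 19.4%). Introns held 36.7% and 43.8%, and intergenic sequence 34.9% and 36.0%. Both sets were poorer in promoters than regions called in all 4 libraries (50.2%) and all regions (31.7%). The order depended on the peaks used. With all peaks of every library the promoter shares were 13.0% for FAK-nls-only and 18.7% for FAK-kd-only regions. Over the strongest peaks of each library, promoters held 41.9% and 41.6% in FAK-nls and 41.2% and 39.7% in FAK-kd. The difference of 1.32 percentage points gave p = 0.333 (exact permutation test over libraries, two-sided, n = 2 per line), and 2 against 2 libraries allow no smaller p.

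Promoter members of the sets were of different kinds. The 370 promoters in the FAK-nls-only set had a mean G+C content of 59.7% and those of the FAK-kd-only set (265) 54.0%, beside 63.0% in promoters called in all 4 libraries. Over 60% G+C was found in 52.7% of FAK-nls-only and 22.3% of FAK-kd-only promoters. All promoter regions had a mean of 60.6%, and 54.4% of them were over 60% G+C. The site of KLF and SP factors (GGGCGGG), common in CpG-rich promoters, was in 45.4% (40.4% to 50.5%) of FAK-nls-only and 25.3% (20.4% to 30.8%) of FAK-kd-only promoters, while AP-1 was in 16.2% (12.8% to 20.3%) and 35.8% (30.3% to 41.8%). For comparison, all promoter regions held these motifs in 47.0% and 14.2%. The CRE site (TGACGTCA) was in 4.86% (3.10% to 7.56%) and 0.755% (0.207% to 2.71%) of the FAK-nls-only and FAK-kd-only promoters, beside 2.98% of all promoter regions and 3.31% of those called in all 4 libraries. FAK-kd-only promoters were thus poorer in G+C and held AP-1 more often than other promoters, and FAK-nls-only promoters were close to all promoters in KLF/SP and AP-1. The nearest start site was of a protein-coding gene for 75.5% of FAK-kd-only, 83.5% of FAK-nls-only and 85.4% of all promoter regions. The part of noncoding start sites in these differences was not tested.

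Outside promoters the sets held AP-1 equally often, in 51.5% (48.5% to 54.5%) of 1029 FAK-nls-only and 50.9% (48.2% to 53.7%) of 1253 FAK-kd-only regions, against 57.8% of regions called in all 4 libraries and 50.3% of all regions. TEAD sites (GGAATG) were also alike at 32.6% and 30.8%. NF-kB sites (GGGANTTCC) were in 1.07% (0.598% to 1.90%) of FAK-nls-only and 2.79% (2.02% to 3.86%) of FAK-kd-only regions, beside 2.03% of all regions there. The CTCF motif was in 2.62% (1.81% to 3.79%) and 4.39% (3.39% to 5.67%), beside 4.79% of all. RUNX (TGTGGTT) was in 19.8% and 16.2%, and IRF (GAAANNGAA) in 17.4% and 13.7%, with intervals that overlap. Mean G+C content outside promoters was 44.1% in FAK-nls-only and 47.7% in FAK-kd-only regions, and soft-masked repeats made up 16.3% and 13.8% of the central 500 bp. The part of base composition in the motif shares was not tested. Matches are to letters only and show no binding.

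**Figure D4:**
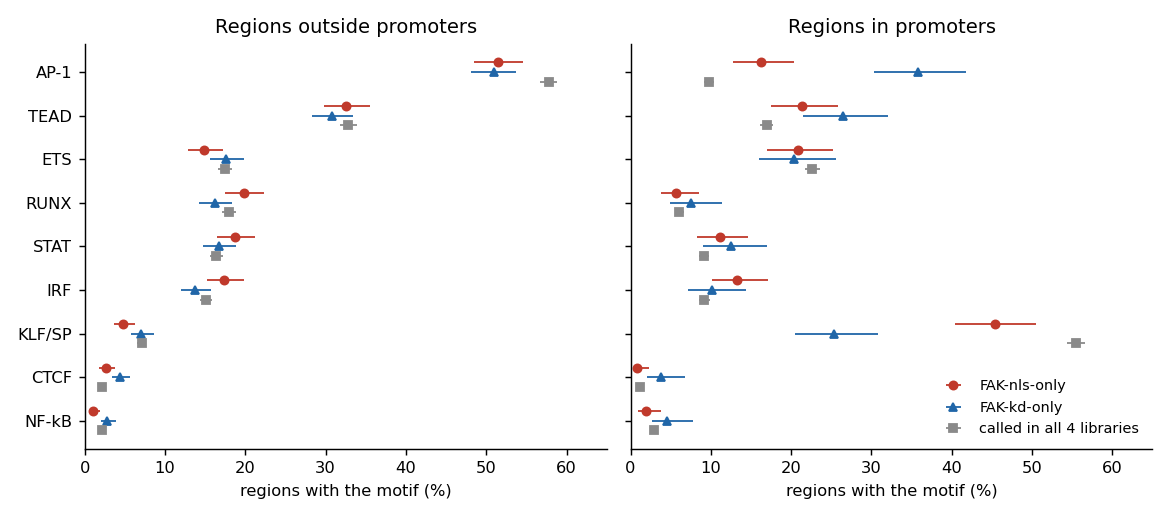
Share of regions (x axis, percent) with each motif in the central 500 bp, outside promoters (left) and in promoters (right), with 95% Wilson intervals as bars. AP-1 shares of both sets coincide outside promoters (51.5% and 50.9%) and separate in promoters (16.2% for FAK-nls-only and 35.8% for FAK-kd-only regions).

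Per library, AP-1 was in 37.9% and 39.0% of the strongest FAK-nls peaks and in 39.2% and 39.0% of the strongest FAK-kd peaks, a difference of −0.67 percentage points (exact permutation p = 0.333, n = 2 per line). Over all peaks the difference was 0.36 percentage points (exact permutation p = 0.667). In the whole sets AP-1 was in 42.2% of FAK-nls-only and 48.3% of FAK-kd-only regions, beside 38.9% of all regions. AP-1 also varied within the sets. In FAK-kd-only regions called in all of FAK-WT and FAK-/- it was in 55.2% (50.4% to 59.9%), and in those called in none of these in 40.6% (34.0% to 47.6%). The FAK-nls-only set showed 51.3% (42.2% to 60.3%) and 37.7% (33.5% to 42.1%) in the same groups. Promoters, in which AP-1 was less frequent, made up 15.0% and 25.4% of these FAK-nls-only groups and 16.6% and 15.7% of the FAK-kd-only groups, and their part in the FAK-nls-only difference was not tested.

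Fold enrichment was then compared in the 15646 regions called in all 4 libraries. Regions that any of these libraries lacked are left out, so the counts and the spread below describe commonly called regions only. With limma on log2 fold enrichment and Benjamini-Hochberg adjustment, no region was higher in FAK-nls (0%) and 2 were higher in FAK-kd (0.0128%). At an unadjusted p under 0.05 there were 846 and 840. The spread of log2 differences was narrow (SD 0.20 across regions), and 1.5% of regions differed by more than 0.5. On log2 pileup in place of fold enrichment, limma called 31 regions higher in FAK-nls (0.198%) and 20 higher in FAK-kd (0.128%). Of the fits to fold enrichment that left out a library, those without FAK-kd replicate 1 (8 higher in FAK-nls and 14 in FAK-kd) and without FAK-nls replicate 2 (2 and 7) called the most.

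The first of the 2 regions lies 121 bp upstream of the predicted gene *Gm13274* (chr4:88757525-88757876). Its fold enrichment was 5.28 and 6.07 in FAK-nls and 10.7 and 14.2 in FAK-kd, beside 8.54 to 13.3 in FAK-WT and FAK-/- (log2 difference −0.96 ± 0.13 SE, limma with Benjamini-Hochberg adjustment, adjusted p = 0.00489). Over the other fits to fold enrichment that used every library and no replicate block, the limma adjusted p was 0.00593 to 0.0129. On pileup it was 0.0819. Fits that left out a library gave log2 differences of −1.04 to −0.87, the smallest without FAK-kd replicate 2. The other lies in an intron of *P3h2*, which encodes a collagen prolyl hydroxylase (chr16:26064936-26065613), and holds the AP-1 match of the P3h2 window above. Its fold enrichment was 4.05 and 4.20 in FAK-nls, 7.96 and 10.8 in FAK-kd, 10.4 and 5.98 in FAK-WT and 5.35 and 4.80 in FAK-/- (log2 difference −1.0 ± 0.16 SE, adjusted p = 0.0212 by limma). Over the same other fits its limma adjusted p was 0.0226 to 0.0459. Leaving out a library gave log2 differences of −1.10 to −0.90 there, the smallest without FAK-kd replicate 2. Such fits rest on a lone library of 1 line. In both regions the FAK-nls values lay below every other library.

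Over all tested regions 50.2% were promoters and 33.7% held an AP-1 match. The 10 regions with the lowest p in each direction are given as a description. Of the 10 with the lowest p that were higher in FAK-nls, 8 lay in promoters, among them *Plxnb2*, *Aebp2*, *Tbx18* and *Bahd1*. At *Aebp2*, which encodes a cofactor of Polycomb repressive complex 2, the fold enrichment was 4.16 and 4.55 in FAK-nls and 3.14 and 3.32 in FAK-kd (limma log2 difference 0.60 ± 0.13 SE, adjusted p = 0.247). None passed the threshold. Of the 10 higher in FAK-kd, which include the 2 above, 1 lay in a promoter and 8 held an AP-1 match. At the *Arhgef3* intron (chr14:27376039-27376586) the values were 4.25 and 4.09 in FAK-nls and 7.51 and 8.52 in FAK-kd (log2 difference −0.77 ± 0.16 SE, adjusted p = 0.247 by limma).

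A split in the same direction was seen over all tested regions, which include those just named. The median log2 difference was 0.05 in 7848 promoters and −0.04 in 4505 regions outside promoters with AP-1. Relative to the library median, the median log2 fold enrichment of the AP-1 regions outside promoters was 0.02 and 0.03 in FAK-nls and 0.06 and 0.11 in FAK-kd, so the libraries did not overlap, by small margins. Regions outside promoters without AP-1 had −0.05 and −0.04 in FAK-nls and −0.03 and −0.01 in FAK-kd, which also did not overlap. Their median log2 difference was −0.01. Of regions higher in FAK-nls at an unadjusted p under 0.05, 60.5% were promoters, and of those higher in FAK-kd 25.5%, beside 50.2% of all tested. AP-1 was in 22.9% and 53.5% of them, beside 33.7%. Both FAK-nls libraries had the lowest pileup of the series. Pileup was not read by promoter or AP-1 class, and its part in this split was not tested.

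Members of both sets were unevenly spread over chromosomes. FAK-nls-only regions made up 5.63% of the regions of chromosome 13, 4.51% of chromosome 3 and 4.34% of chromosome 10, beside 2.44% on chromosome 15. FAK-kd-only regions made up 5.23% on chromosome 15 and 2.65%, 2.37% and 2.47% on chromosomes 13, 3 and 10. In regions called in all 4 libraries, the median log2 pileup on chromosome 13, relative to the library median, was −0.06 and −0.08 in FAK-nls and −0.24 and −0.21 in FAK-kd. On chromosome 15 it was 0.06 and 0.12 in FAK-nls and 0.22 and 0.19 in FAK-kd. On both chromosomes the pileup of commonly called regions leaned in the same direction as the sets, with no overlap between the replicates of the lines. On others, such as chromosomes 1, 7 and 14, the replicates of the lines overlapped. Across 20 chromosomes the pileup difference and the FAK-nls-only share had Pearson's r = 0.81 (Spearman's coefficient 0.75), and the FAK-kd-only share r = −0.77 (Spearman's coefficient −0.69). The chromosomes share the same 4 libraries, and the values carry no test. Fold enrichment, which is set against local background, differed by −0.04 to 0.04 between lines per chromosome.

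**Figure D5:**
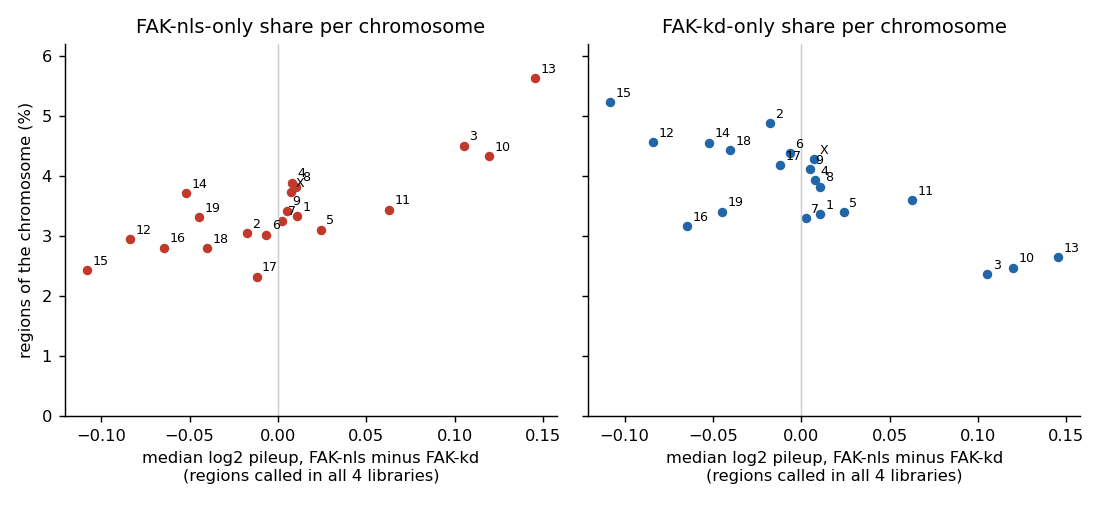
Share of the regions of a chromosome (y axis, percent) that were FAK-nls-only (left) or FAK-kd-only (right) against the median log2 pileup difference, FAK-nls minus FAK-kd, of regions called in all 4 libraries (x axis). Points are chromosomes. Chromosomes 3, 10 and 13 lie to the right, with high FAK-nls-only and low FAK-kd-only shares, and chromosome 15 lies at the far left with the reverse.

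The lean was concentrated in parts of chromosomes. Of 243 windows of 10 Mb with at least 20 commonly called regions, 20 had a pileup difference of 0.2 or more. They held 212 FAK-nls-only regions (5.63% of their regions) and 61 FAK-kd-only regions (1.62%). The 19 windows at −0.2 or less held 53 (2.16%) and 110 (4.48%). At 110 to 120 Mb of chromosome 13, where *Isl1* and its 4 members lie, the relative log2 pileup was 0.13 and 0.11 in FAK-nls and −0.44 and −0.25 in FAK-kd, and 22 regions were FAK-nls-only against 4 FAK-kd-only. At 50 to 60 Mb of chromosome 3 it was 0.03 and 0.03 in FAK-nls and 0.36 and 0.34 in FAK-kd, with 1 and 14 members. In the 204 windows between these limits, 1091 regions were FAK-nls-only (3.31%) and 1310 FAK-kd-only (3.97%), so most members lay outside the leaning windows. At 60 to 70 Mb of chromosome 15, which holds *Myc*, the values were −0.15 and −0.06 in FAK-nls and 0.15 and −0.01 in FAK-kd, with 7 and 13 members. DNA copy number of the lines was not measured here, and the part of it and of the regional pileup in the sets was not tested.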

How the data were processed

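ATAC-seq peak lists of 8 libraries, 2 from each of the FAK-nls, FAK-kd, FAK-WT and FAK-/- lines, were analysed. According to the methods, the authors aligned reads to mm10 with the bcbio pipeline and called broad peaks in each library separately with MACS2 (2.1.1 in the submitters' processing notes). The deposited files give for every peak the pileup (signal height), −log10 p-value and −log10 q-value, and the fold enrichment, a ratio of pileup to local background as the authors' caller computed it. The files analysed here give pileup and not counts per region. The study lists mapped reads per library, with totals not lower for FAK-nls than for FAK-kd and a larger share of duplicates in FAK-nls, and they were not used here. Wilson 95% intervals cover the counting of regions only. The study's own differential test needs reads and was replaced by limma 3.58.1 (R 4.3.3, trend, Benjamini-Hochberg, threshold 0.05) on log2 fold enrichment centred on the library median, without pseudocount, tested on simulated data. Per-library shares were compared by exact permutation (scipy 1.17.1). Peaks outside chromosomes 1 to 19, X and Y (15 to 25 per library) were left out. Annotation was GENCODE M21 (GRCm38). For 18 motifs, either strand of a region's central 500 bp was searched, and 12 gene lists were read. The comparison, its members and the lists were chosen with earlier results of these data known. Named regions were the 10 of each set with the best poorer rank outside chromosome 18, the 3 best with 2 FAK-WT calls and no FAK-/- call, the 3 best without a FAK-WT call, the genes with most members, the 10 lowest p per direction, and *Ptk2* and *Il33*. Nearest start sites do not show which gene a region acts on. Regions at near-identical copies of a gene could share reads, as mapping filters were not checked here. The same replicate number marked no shared origin in the labels, and deviations of same-numbered libraries had a correlation of 0.02. Alternatives were all peaks, a q limit, ranking by fold enrichment, fixed peak width, a coverage minimum, autosomes, other promoter and motif windows, other values, scalings and fits, a replicate block and leaving out each library.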

Additional observations from a re-analysis of the deposited data

How the results depend on the processing

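Set sizes and shares depended on which peaks entered. With all peaks of each library there were 216 FAK-nls-only and 5946 FAK-kd-only regions, shares called in both FAK-WT libraries of 42.6% and 69.2%, a FAK-nls-only promoter share of 13.0% and AP-1 shares of 48.1% and 41.9%. With −log10 q of at least 3 there were 222 and 4221, with FAK-WT shares of 36.5% and 63.2%, promoter shares of 18.9% and 30.5% and AP-1 shares of 46.4% and 41.2%. Ranking by fold enrichment gave FAK-WT shares of 13.4% and 46.1%, promoter shares of 41.7% and 13.4% and a FAK-nls-only AP-1 share of 33.8%. Requiring 50% of a region to be covered gave 3413 FAK-kd-only regions, FAK-WT shares of 17.7% and 59.5%, a FAK-kd-only promoter share of 35.2% and AP-1 shares of 45.7% and 40.4%. The order of the sets in the FAK-WT share was the same under these settings, while the order in promoter and AP-1 shares turned with all peaks, with the q limit and with the coverage minimum. In the main setting the AP-1 shares were 42.2% for FAK-nls-only and 48.3% for FAK-kd-only regions. A promoter within 1000 bp gave 14.8% for FAK-kd-only regions. AP-1 shares were 27.0% and 33.7% in the central 200 bp, 49.7% and 54.1% in whole regions and 51.5% and 50.9% outside promoters.

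In alternatives chosen after seeing the data, 208 FAK-nls-only regions kept their pattern in the full lists, and pairs of 1 library per line gave FAK-kd-only shares in FAK-WT of 36.2%, 35.2%, 34.4% and 33.1%, and of 22.5% for FAK-nls-only regions with FAK-nls replicate 2 and FAK-kd replicate 1. Leaving out each library in turn gave 2451 to 3862 FAK-nls-only and 2616 to 4034 FAK-kd-only regions, FAK-WT shares of 11.0% to 32.1% and 25.6% to 53.8%, promoter shares of 20.7% to 34.0% and 15.7% to 21.98%, and AP-1 shares of 36.3% to 42.1% and 43.0% to 47.5%. It also gave per-library differences of −1.21 to −0.13 percentage points for AP-1 and 0.56 to 2.09 for promoters. The per-library AP-1 difference was 0.36 with all peaks.

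With limma, pileup in place of fold enrichment called 31 regions higher in FAK-nls and 20 in FAK-kd, the replicate block 12 and 15, and leaving out a library 0 to 8 and 1 to 14, where the lone library of a line is assumed to vary like the other line. Regions called with the replicate block describe samples that share only a number. The cause of these changes was not tested. The low pileup and short lists of the FAK-nls libraries limit which absences of a FAK-nls peak can be read as closed chromatin, and 2 libraries per line limit every test.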
